A study of Rattus norvegicus with 9 samples.

Results

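Autophagy genes were followed across the 3 groups of a rat kidney study: 32 genes of the core machinery and of the cargo receptors, taken by symbol from the authors' table of FPKM values, which scale fragments by transcript length and library size. Of these, 30 had a row among the 11235 genes of that table, and Atg4a and Atg10 enter only the start-site sequences below. Each group had 3 libraries: sham-operated kidneys, kidneys reperfused after ischaemia of 45 min (I/R), and I/R kidneys of rats given rapamycin, which inhibits mTOR complex 1. All animals were wild-type Sprague-Dawley rats of 6 to 8 weeks. The sources differ on the treatment. The series design names males and intraperitoneal injection of 1 mg/kg daily. The sample protocols name both sexes and oral gavage of 1 or 2 mg/kg daily, with reperfusion for 3 or 7 days. The sex, dose, route and time behind these libraries are therefore unsettled. Below, the injury comparison is I/R against sham, the treatment comparison is I/R + rapamycin against I/R, and the treated-to-sham comparison is I/R + rapamycin against sham. Nothing in the labels says that the libraries of a group came from separate animals, and p-values then measure only the spread between these samples.

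Autophagy encloses cytoplasm in a double membrane that fuses with lysosomes. The ULK1 kinase complex starts it and mTOR complex 1 restrains that kinase, a class III phosphatidylinositol 3-kinase complex then marks the membrane, and ATG9, ATG2 and WIPI proteins bring and transfer lipid to it. A conjugation system related to that of ubiquitin acts on the growing membrane, and receptors select the cargo that is degraded. In kidney tubules autophagy is known to be induced by ischaemia and to protect the epithelium. Much of this control acts on proteins, and RNA levels do not measure the rate of autophagy.

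Total counts per library ranged from 44582251 to 60538627. Sham 3 and I/R 1 lay at one end of the first principal component (26.2% of the variance) and I/R + rapamycin 1 and 2 at the other. The labels name kidney and renal tubular cell. Markers of proximal tubule (summed FPKM 1396 to 2065 over the libraries) and thick limb (560 to 1148) were abundant. All 4 endothelial markers (101 to 131), all 4 podocyte markers (75.03 to 141) and 4 of 6 immune markers (25.7 to 41.0) were measured as well, so the libraries hold RNA of the kidney's other cells too. Genes of the FPKM table all reach 1 FPKM in 8 or 9 libraries, so no measured marker could be at 0 throughout. The podocyte sum was 132 to 141 FPKM in sham, 82.6 to 112 in I/R and 75.03 to 113 with rapamycin. The collecting duct sum was 259 to 280 FPKM in sham, 215 to 242 in I/R and 211 to 294 with rapamycin. In each comparison, 0 markers of these 2 lists passed the edgeR test described below. The 3 measured globin and red blood cell markers summed to 70.7 to 755 FPKM in sham, 382 to 997 in I/R and 23.8 to 153 with rapamycin. In such bulk tissue fewer cells of a type and less RNA per cell cannot be told apart. The part of blood content and cell makeup in the values that follow was not tested.

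All 30 genes were expressed in every library, with 490 to 20643 counts each. Their levels per length spanned a wide range, from the receptor gene Sqstm1 at a mean of 84.7 FPKM over the 9 libraries to Atg14 at 3.31 FPKM. The receptors Bnip3 (55.5 FPKM) and Nbr1 (52.8 FPKM) followed Sqstm1. Becn1 at 41.3 FPKM was the most abundant gene of the initiation steps, and the other initiation genes lay at 14.5 FPKM (Atg9a) or below. The median level was 12.5 FPKM, against 8.42 FPKM for all genes of the table. The order was not sharp: of 29 neighbouring pairs in it, 3 had ranges over the 9 libraries that did not overlap, namely Sqstm1 and Bnip3, Nbr1 and Becn1, and Tax1bp1 and Bnip3l.

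**Figure D1:**
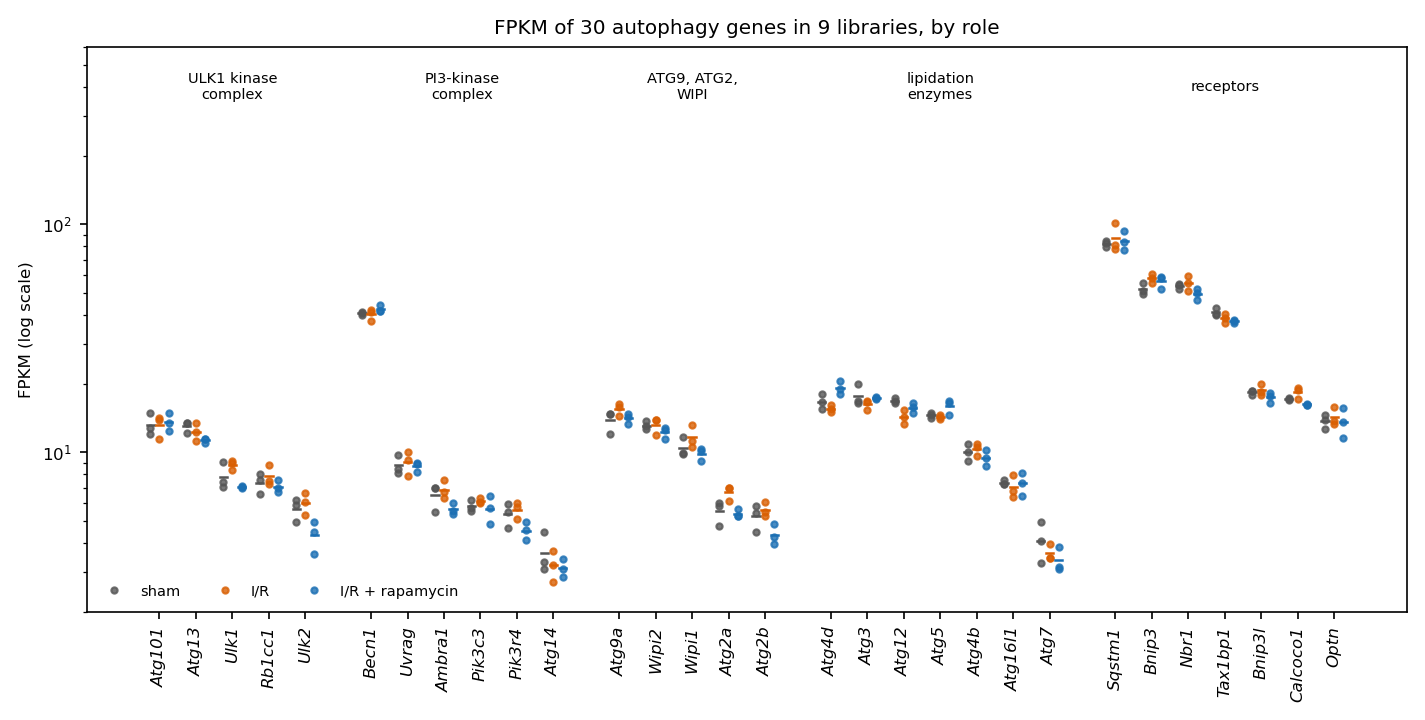
FPKM (log scale) of the 30 autophagy genes in each of the 9 libraries, grouped by role and ordered by level, with points for libraries, short bars for group means and colours for the 3 groups. Sqstm1 stands highest at a mean of 84.7 FPKM, Becn1 stands above the other initiation genes, and the 3 groups lie close together for most genes.

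The levels varied little. The ratio of the highest to the lowest of the 9 libraries was under 2 for all 30 genes, the widest being 1.85 for Ulk2, while 83.4% of all genes in the table had a ratio under 2. The median coefficient of variation over the 9 libraries was 8.58%, against 12.8% for all genes. The 30 genes also had a higher median level (12.5 against 8.42 FPKM) and a longer median implied length (4412 against 3202 bases). The part of level and length in their smaller spread was not tested. I/R 1 was the highest library for 12 of the 30 genes (40%, against 21.8% of all genes) and the lowest for 3, and I/R + rapamycin 1 was the lowest for 11 (36.7%, against 21.5%).

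No autophagy gene passed the test in any of the 3 comparisons. By the quasi-likelihood test of edgeR, adjusted over 17335 genes by the Benjamini-Hochberg method, the lowest adjusted p among the 30 was 0.331 for the injury comparison, where 0.0577% of all genes were called at an adjusted p under 0.05. It was 0.132 for the treatment comparison, where 0.127% were called, and 0.293 for the treated-to-sham comparison, where 0.156% were called. DESeq2 called 0 of 30 in the injury comparison and in the treated-to-sham comparison, where it called 1.49% and 3.14% of genes. It called 1 of 30, Atg4d, in the treatment comparison, where it called 4.43%. These shares are over the genes to which DESeq2 gave an adjusted p, 16143, 17806 and 15311 in that order.

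In the edgeR fit of all 9 libraries the estimates were precise enough to bound the differences. In the injury comparison the 95% interval of every one of the 30 fold changes, taken gene by gene and not adjusted for their number, lay within 1.5-fold in either direction. With rapamycin 29 did so against I/R and 29 against sham, the exception in both being Ulk2. In the injury comparison Atg14 came nearest to the limit, with a lower bound of 0.672-fold (log2 fold change -0.21, SE 0.17). Without I/R 1 Atg14 was at -0.30 (SE 0.18) and Atg7 at -0.24 (SE 0.17), and both intervals then passed 1.5-fold. In the treatment comparison Atg4d had an upper bound of 1.48-fold. Without I/R 1 Atg4d was there at 0.37 (SE 0.11) and Atg2b at -0.32 (SE 0.12), and these intervals too passed 1.5-fold. The median standard error was 0.10 on the log2 scale, against 0.17 for all tested genes. The latter include genes outside the FPKM table, while each of the 30 had at least 490 counts in every library. The median log2 fold change of the 30 genes was 0.03 in the injury comparison, -0.04 in the treatment comparison and -0.03 in the treated-to-sham comparison, beside 0.003, 0.01 and 0.001 over all tested genes. The comparisons share libraries: I/R enters the first and second, rapamycin the second and the third, and sham the first and the third.

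**Figure D2:**
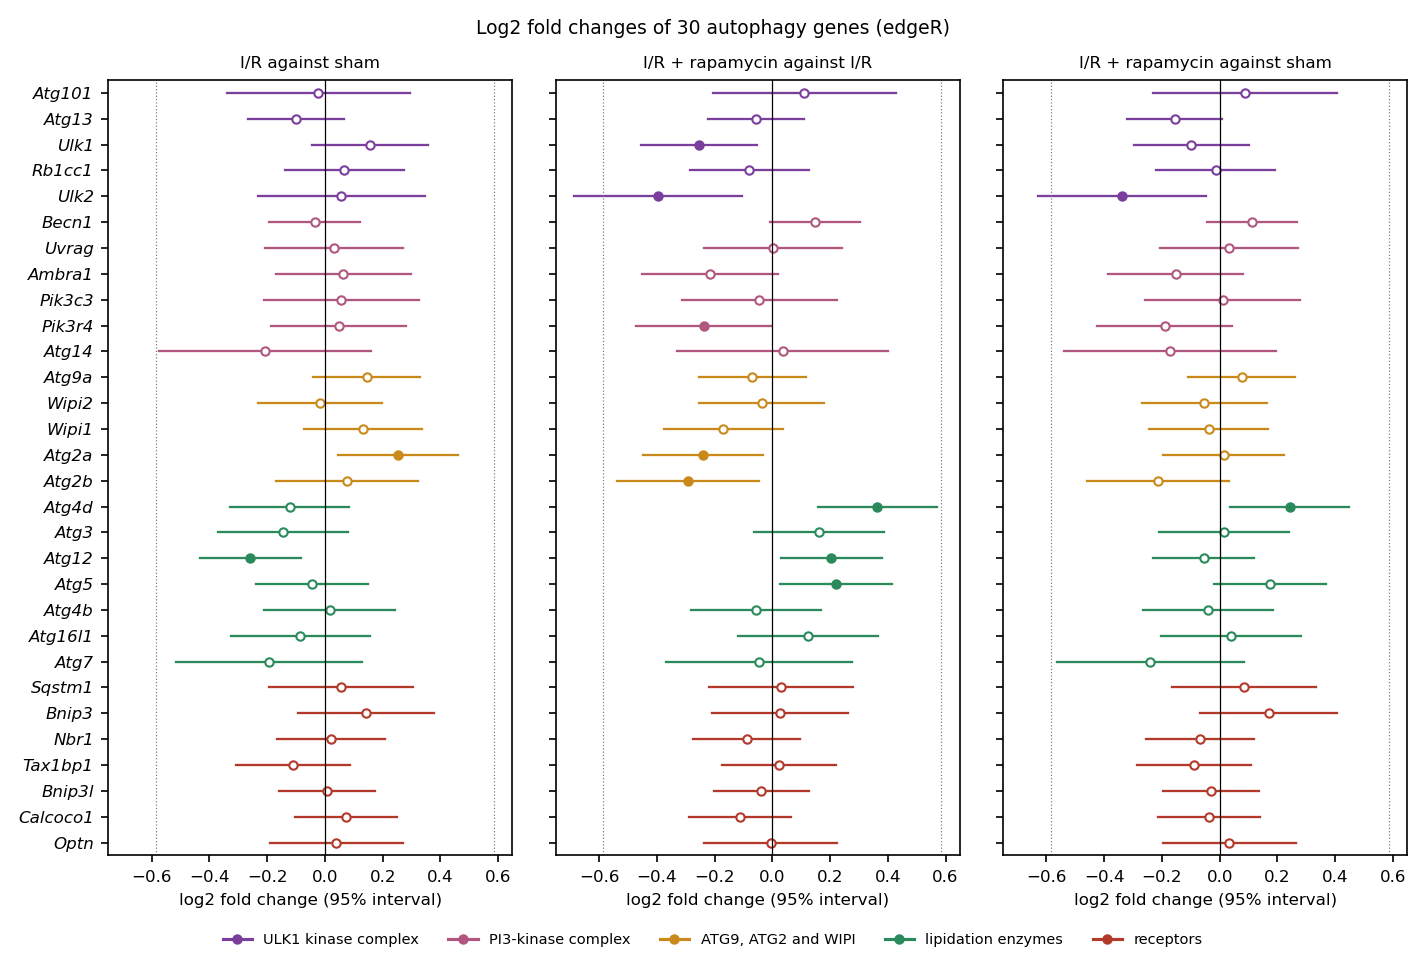
Log2 fold change and 95% interval of each of the 30 genes in the 3 comparisons, coloured by role. Filled points have an unadjusted p under 0.05 and dotted lines mark 1.5-fold in either direction. Nearly all intervals lie between the dotted lines, and the filled points are most frequent in the treatment comparison.

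At an unadjusted p under 0.05, which is no call, 2 of the 30 genes passed in the injury comparison (6.67%, where 9.42% of all genes passed). These were Atg2a, higher after injury, where 4.83% of all genes were, and Atg12, lower, where 4.59% were. In the treated-to-sham comparison 2 passed as well (6.67%, where 13.8% of all genes passed), Atg4d higher, where 6.06% were, and Ulk2 lower, where 7.75% were. In the treatment comparison 8 passed (26.7%, where 16.3% of all genes passed). Of these, 3 were higher with rapamycin (Atg4d, Atg5 and Atg12), where 7.11% of all genes were, and 5 lower (Ulk2, Atg2b, Ulk1, Atg2a and Pik3r4), where 9.14% were. These shares of all genes are over the 17335 tested. The 30 genes came from the FPKM table, and of its 11232 genes that were tested and had an implied length 10.6% passed in the injury comparison. The share of these 11232 genes was 15.1% in the treated-to-sham comparison and 19.6% in the treatment comparison. The count of 8 depended on single libraries. It was 5 without I/R 1, where 13.3% of all genes passed, 3 without I/R 3, where 12.4% passed, 4 without I/R + rapamycin 1, where 9.49% passed, and 5 on leaving out I/R + rapamycin 3, where 17.3% passed. With I/R 1 and sham 3 both left out it was 6, where 15.2% passed. The 2 genes of the treated-to-sham comparison became 0 without sham 1, where 11.5% of all genes passed, 0 without sham 3 (10.9%), 0 without the third rapamycin library (15.7%) and 7 without sham 2, where 14.7% of all genes passed. Those of the injury comparison became 1 without I/R 3, where 6.34% of all genes passed, and 3 without sham 1, where 10.1% passed, and numbered 2 on leaving out any other single library. Without sham 2, where 6.12% of all genes passed, both of the 2 genes were lower after injury, so Atg2a was not among them.

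In TMM-scaled counts the groups did not overlap for 3 of the 30 genes in the injury comparison (10%, where 14.6% of all genes did not): Atg2a and Atg9a were higher, where 7.43% of all genes were, and Atg12 lower, where 7.19% were. In the treatment comparison 12 did not overlap (40%, where 24.6% of all genes did not). Higher with rapamycin were Becn1, Atg3, Atg4d, Atg5 and Atg12, where 11.8% of all genes were, and lower were Ulk1, Ulk2, Pik3r4, Ambra1, Atg2a, Atg2b and Wipi1, where 12.8% were. In the treated-to-sham comparison 3 did not overlap (10%, where 19.3% of all genes did not), Becn1 and Atg4d higher, where 9.69% were, and Atg13 lower, where 9.65% were. These shares are over all 17335 tested genes, which include genes outside the FPKM table from which the 30 came.

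**Figure D3:**
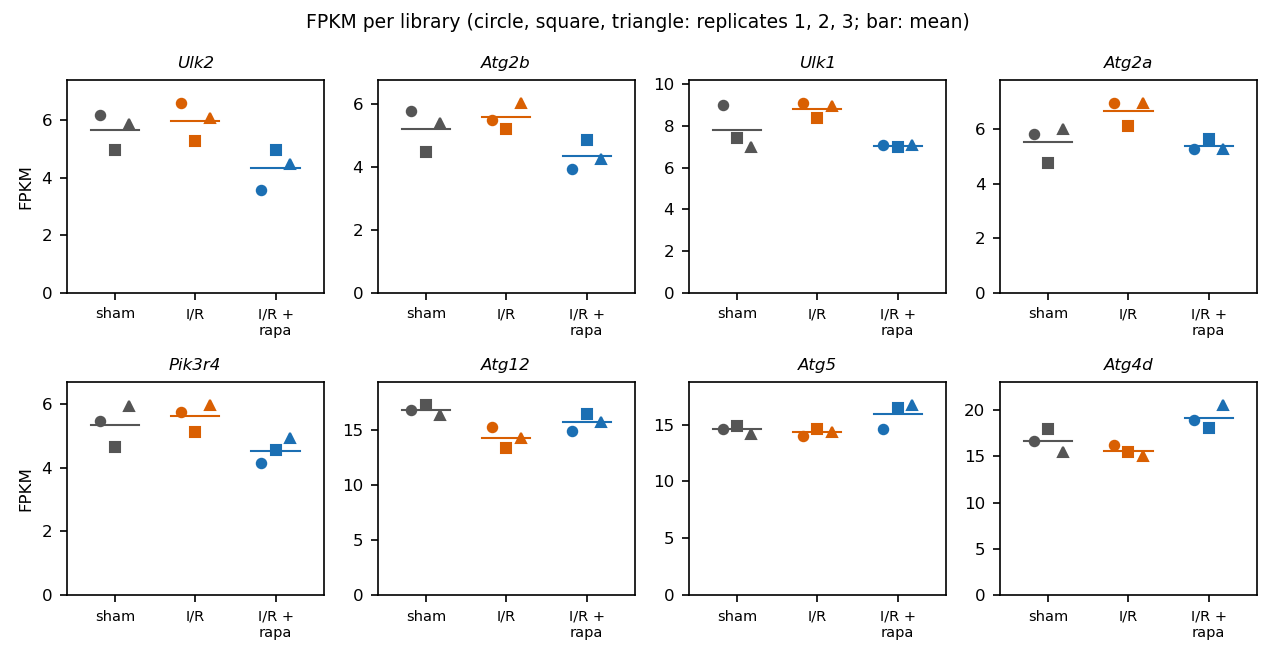
FPKM per library (axis from 0) of the 8 genes with an unadjusted p under 0.05 in the treatment comparison, with a marker shape for each replicate number and bars for group means. Ulk1 is between 7.01 and 7.10 FPKM in the rapamycin libraries and between 8.40 and 9.12 FPKM in the I/R libraries, while Atg12 overlaps between these groups in FPKM.

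Initiation begins with the ULK1 kinase complex. Ulk1, the kinase that mTOR complex 1 phosphorylates and restrains, was at 9.03, 7.41 and 7.01 FPKM in sham 1, 2 and 3, at 9.12, 8.40 and 8.98 FPKM in I/R and at 7.10, 7.01 and 7.08 FPKM with rapamycin. The rapamycin libraries lay together, below all 3 I/R libraries and level with sham 2 and 3. Ulk1 had a log2 fold change of -0.25 in the treatment comparison (SE 0.09, edgeR adjusted p = 0.224) and -0.10 against sham (SE 0.09).

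Its relative Ulk2 was at 6.18, 4.96 and 5.86 FPKM in sham, 6.61, 5.29 and 6.06 FPKM in I/R and 3.58, 4.95 and 4.47 FPKM with rapamycin. All rapamycin values were below those of both other groups, by a narrow margin for the second library against sham 2, which closed in TMM-scaled counts. The log2 fold change of Ulk2 was -0.40 in the treatment comparison (95% interval -0.69 to -0.10, edgeR adjusted p = 0.201) and -0.34 against sham (95% interval -0.63 to -0.05, edgeR adjusted p = 0.297). Without I/R + rapamycin 1 the first of these was -0.28.

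Rb1cc1, which encodes the scaffold FIP200 of the same complex, was at 8.01, 7.54 and 6.57 FPKM in sham, 8.80, 7.26 and 7.47 FPKM in I/R and 6.70, 6.97 and 7.55 FPKM with rapamycin, and the groups overlapped. Atg13, the subunit that ties ULK1 to FIP200, was at 13.4, 12.1 and 13.5 FPKM in sham, 13.4, 11.2 and 12.3 FPKM in I/R and 11.4, 11.0 and 11.5 FPKM with rapamycin. The rapamycin values of Atg13 lay below all sham values but overlapped those of I/R (log2 fold change -0.16 against sham, SE 0.07, edgeR adjusted p = 0.392). Atg101, which stabilises ATG13, had log2 fold changes from -0.02 to 0.11 over the 3 comparisons.

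In the phosphatidylinositol 3-kinase complex, Becn1, the scaffold that BCL2 proteins can bind, was at 40.8, 41.3 and 40.0 FPKM in sham, 42.3, 37.8 and 41.1 FPKM in I/R and 41.7, 41.8 and 44.5 FPKM with rapamycin. Its coefficient of variation over all libraries was 4.34%. The log2 fold change of Becn1 was -0.04 in the injury comparison (95% interval -0.19 to 0.12) and 0.15 in the treatment comparison (95% interval -0.01 to 0.30, edgeR adjusted p = 0.332). Pik3r4, the regulatory subunit VPS15, was at -0.24 in the treatment comparison (SE 0.11, edgeR adjusted p = 0.297), and its catalytic partner Pik3c3 at -0.05 (SE 0.12). Atg14, which directs the complex to autophagosome formation, and Uvrag, which directs it to endosomes, were at 0.04 and 0.00 in that comparison, and the regulator Ambra1 was at -0.22 (SE 0.11, edgeR adjusted p = 0.342). None of the 6 genes passed in any comparison.

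Among the genes of lipid supply, Atg2a, which encodes a lipid transfer protein, was at 5.81, 4.76 and 5.99 FPKM in sham, 6.95, 6.13 and 6.96 FPKM in I/R and 5.26, 5.63 and 5.28 FPKM with rapamycin. Every I/R library was above every sham and rapamycin library. The log2 fold change of Atg2a was 0.25 in the injury comparison (SE 0.09, edgeR adjusted p = 0.437), -0.24 in the treatment comparison (SE 0.09, edgeR adjusted p = 0.257) and 0.01 with rapamycin against sham. Its paralogue Atg2b was at 0.08, -0.29 and -0.21 in these comparisons, the second with an SE of 0.11 and an edgeR adjusted p of 0.246. Atg9a, the lipid scramblase carried on vesicles, was at 14.7, 12.0 and 14.7 FPKM in sham, 16.2, 14.5 and 15.8 FPKM in I/R and 13.3, 14.3 and 14.7 FPKM with rapamycin. Its sham and I/R values overlapped in FPKM but not in TMM-scaled counts (log2 fold change 0.15, SE 0.08, edgeR adjusted p = 0.637). The phosphoinositide-binding proteins' genes Wipi1 and Wipi2 were at -0.17 and -0.04 in the treatment comparison. All 5 genes of lipid supply were fitted below 0 in that comparison, with a median log2 fold change of -0.17, and 0 passed the test. That median was -0.08 with the trend on transcript length removed, which put Atg9a above 0 at 0.01, and -0.09 without I/R 1. Without I/R + rapamycin 1, Wipi2 was above 0 at 0.01.

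Lipidation uses ATG7 as the activating enzyme, ATG3 as the conjugating enzyme, the ATG12-ATG5-ATG16L1 complex as the ligase and the ATG4 proteases. Of 9 listed genes 7 were measured, and 0 passed the edgeR test in any comparison. Their median log2 fold change was -0.12 in the injury comparison, with 6 of 7 fitted below 0, and 0.16 in the treatment comparison, with 5 of 7 above 0. The first median was -0.04 without sham 2, and the second was 0.09 with limma on log2(FPKM + 1).

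The protease gene Atg4d had the smallest unadjusted p of the 30 genes in the treatment comparison. It was at 16.6, 17.99 and 15.4 FPKM in sham, 16.2, 15.5 and 15.0 FPKM in I/R and 18.9, 18.01 and 20.5 FPKM with rapamycin. All rapamycin values were above all I/R values, and above the sham values by a narrow margin at sham 2. The log2 fold change of Atg4d was 0.36 in the treatment comparison (95% interval 0.16 to 0.57, edgeR adjusted p = 0.132), and DESeq2 gave an adjusted p of 0.0239. Over the alternatives tried the adjusted p ranged from 0.0239 to 0.38, and only DESeq2 put it under 0.05. Against sham the value was 0.24 (95% interval 0.04 to 0.45, edgeR adjusted p = 0.293). The related protease gene Atg4b was at -0.06 (SE 0.10) in the treatment comparison.

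Atg12, the ubiquitin-like part of the ligase, was at 16.8, 17.3 and 16.4 FPKM in sham, 15.3, 13.3 and 14.2 FPKM in I/R and 14.9, 16.4 and 15.7 FPKM with rapamycin. The I/R values were all below the sham values. Its log2 fold change was -0.26 in the injury comparison (95% interval -0.43 to -0.08, edgeR adjusted p = 0.331), 0.20 in the treatment comparison (edgeR adjusted p = 0.252) and -0.06 with rapamycin against sham. Atg5, its conjugation partner, was at -0.05, 0.22 and 0.17 in the 3 comparisons, and Atg16l1, which places the ligase on the membrane, at -0.08, 0.12 and 0.04. Atg3 was at -0.15, 0.16 and 0.01, and Atg7, among the least abundant of the 30 genes at 3.69 FPKM, at -0.19, -0.05 and -0.24 with SEs of 0.15.

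Among the receptors, Sqstm1, whose product p62 carries ubiquitinated proteins, was at 79.2, 84.8 and 82.9 FPKM in sham, 102, 81.3 and 78.3 FPKM in I/R and 77.5, 83.5 and 93.3 FPKM with rapamycin. I/R 1 was the highest, and the groups overlapped. The log2 fold change of Sqstm1 was 0.05 in the injury comparison (95% interval -0.19 to 0.30) and 0.03 in the treatment comparison (95% interval -0.22 to 0.28). Nbr1, a receptor related to p62, was at 54.5, 52.3 and 54.1 FPKM in sham, 59.6, 51.0 and 55.3 FPKM in I/R and 46.7, 52.0 and 49.9 FPKM with rapamycin. Its log2 fold change was -0.09 in the treatment comparison (SE 0.08) and -0.07 against sham (SE 0.08).

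Bnip3 and Bnip3l encode mitophagy receptors of the outer mitochondrial membrane. Bnip3, known as a target of hypoxia-inducible factor, was at 51.1, 55.1 and 49.4 FPKM in sham, 55.2, 60.8 and 58.1 FPKM in I/R and 59.1, 58.5 and 52.0 FPKM with rapamycin. The I/R values were above the highest sham value, by a narrow margin at I/R 1 (log2 fold change 0.14, 95% interval -0.09 to 0.38, edgeR adjusted p = 0.73). In TMM-scaled counts the 2 groups overlapped. Bnip3l, the gene of NIX, was at 18.6, 18.6 and 17.9 FPKM in sham, 19.9, 17.8 and 18.5 FPKM in I/R and 16.5, 17.6 and 18.2 FPKM with rapamycin, with log2 fold changes of 0.01, -0.04 and -0.03. The ubiquitin-binding receptor genes Optn and Tax1bp1 and the ER-phagy receptor gene Calcoco1 ranged from -0.11 to 0.07 over the comparisons. In the edgeR fit of all 9 libraries, all 7 receptor genes had 95% intervals within 1.5-fold in all 3 comparisons, and 0 had an unadjusted p under 0.05.

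Fold changes of these genes were correlated with transcript length. Over the 30 genes the Spearman correlation of the log2 fold change with the length implied by counts and FPKM was 0.51 in the injury comparison. It was -0.71 in the treatment comparison and -0.47 in the treated-to-sham comparison. Over 11232 tested genes of the FPKM table it was 0.30, -0.48 and -0.26 in the same order. The comparisons share libraries, and genes of a library share its RNA quality and preparation. The 3 genes with an unadjusted p under 0.05 and higher values with rapamycin had implied lengths of 2196 to 3381 bases, and the 5 with lower values 4513 to 7382 bases. The lipidation genes had a median implied length of 3382 bases, and the genes of lipid supply 5642 bases. After subtraction of the trend over these 11232 genes, values of the 3 higher genes ranged on the log2 scale from 0.18 to 0.28, where they had been 0.20 to 0.36. Those of the 5 lower genes ranged from -0.33 to -0.08, where they had been -0.40 to -0.24. Atg4d was then at 0.28, Ulk2 at -0.33, Ulk1 at -0.14, Atg2a at -0.08 and Rb1cc1, the longest, at 0.09. The part of RNA quality in this trend was not tested.

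**Figure D4:**
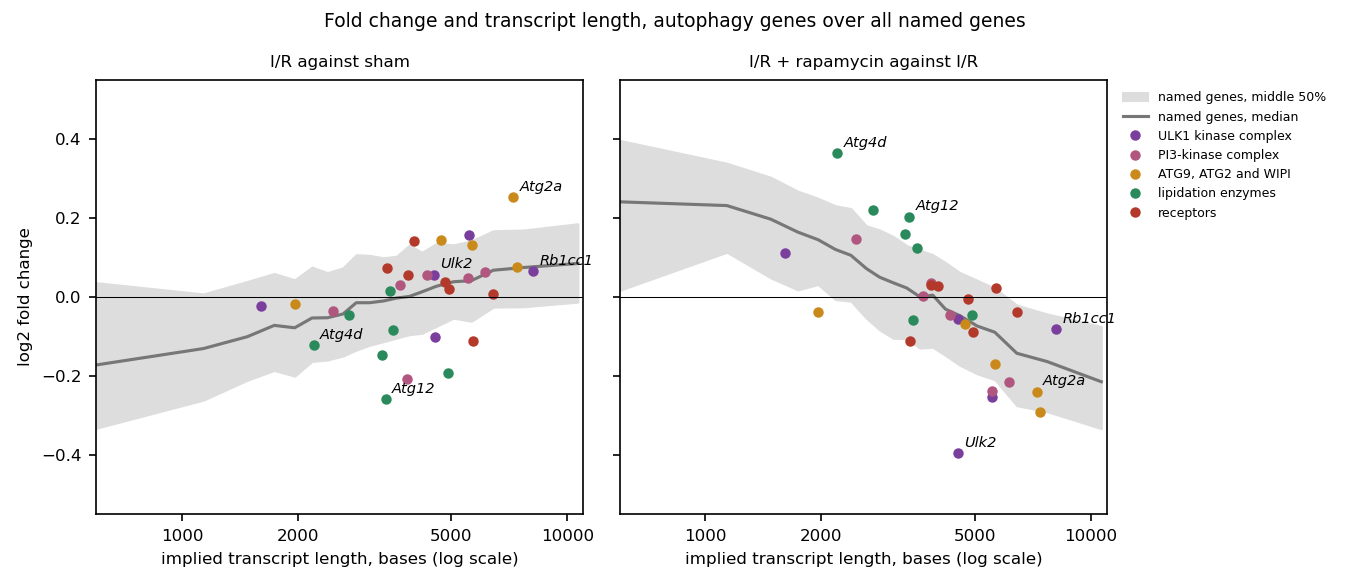
Log2 fold change against implied transcript length (log scale) for the 30 genes, coloured by role. The line is the median and the band the middle 50% of the tested genes of the FPKM table in 20 length bins, labelled named genes. Atg4d, Atg5 and Atg12 lie below 0 in the injury comparison and above 0 in the treatment comparison, while Wipi2, shorter than these, lies below 0 in both.

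Start-site sequences were compared as a feature that the choice of genes did not use. RefSeq windows (assembly GRCr8) of the 250 bases before the start were matched for 28 of the 32 genes, Atg4a and Atg10 among them. The motif CACGTG, the core of the sites bound by TFEB, TFE3 and other E-box factors and the same on both strands, was in 3 of the 28 windows (10.7%), against 8.90% of 8417 genes named in the FPKM table and 6.18% of 27457 genes in all. The longer TCACGTGA, which contains it and is the form typical of lysosomal gene promoters, was in 1 of 28 (3.57%), against 1.64% and 0.776%. The GC box GGGCGG, searched on both strands, was in 19 of 28 (67.9%), against 61.02% and 33.5%. The 3 windows with CACGTG are shown because they belong to 2 lipidation genes and a receptor gene with unlike values above. Capitals mark CACGTG, which Atg3 holds at 2 places, the second within TCACGTGA. The windows are chr11:69159281-69159530 on the minus strand for Atg3, chr20:49380585-49380834 on the plus strand for Atg5 and chr1:203154963-203155212 on the minus strand for Bnip3.
Atg3: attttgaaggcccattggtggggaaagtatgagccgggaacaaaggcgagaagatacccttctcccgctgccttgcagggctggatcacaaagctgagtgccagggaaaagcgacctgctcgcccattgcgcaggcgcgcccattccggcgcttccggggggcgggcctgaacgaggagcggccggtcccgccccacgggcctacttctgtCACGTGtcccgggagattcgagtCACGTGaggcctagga
Atg5: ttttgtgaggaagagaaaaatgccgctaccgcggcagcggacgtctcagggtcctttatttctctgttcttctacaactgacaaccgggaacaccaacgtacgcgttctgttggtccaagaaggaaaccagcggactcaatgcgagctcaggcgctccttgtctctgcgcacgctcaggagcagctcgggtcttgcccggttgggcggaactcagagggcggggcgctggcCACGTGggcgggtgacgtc
Bnip3: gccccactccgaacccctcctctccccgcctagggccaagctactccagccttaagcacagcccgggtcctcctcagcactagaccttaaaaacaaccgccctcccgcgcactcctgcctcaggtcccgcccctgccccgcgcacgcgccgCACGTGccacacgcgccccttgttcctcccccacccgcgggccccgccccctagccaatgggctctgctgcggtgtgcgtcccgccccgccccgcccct
With rapamycin against I/R the log2 fold changes of these 3 genes were 0.16, 0.22 and 0.03. Letters alone do not show that a factor binds there.

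Other genes of the pathway were examined from a list of 55, of which 44 were measured: transcription factors, subunits of the AMP-activated kinase AMPK, further core factors, fusion factors and further receptors. The edgeR test called 0 of 44 in each comparison, where 2, 5 and 6 had an unadjusted p under 0.05 (4.55%, 11.4% and 13.6%, where 9.42%, 16.3% and 13.8% of all genes did). DESeq2 called 0, 2 and 3, where it called 1.49%, 4.43% and 3.14% of the genes to which it gave an adjusted p. Of the 11232 tested genes of the FPKM table, 10.6%, 19.6% and 15.1% had an unadjusted edgeR p under 0.05. Tfeb and Tfe3, the master regulators of autophagy and lysosome genes that mTOR complex 1 holds in the cytoplasm, were at -0.02 (SE 0.11) and 0.04 (SE 0.11) in the treatment comparison. Of the 5 transcription factors, 4 were fitted below 0 there, the lowest at -0.70, and 2 had an unadjusted edgeR p under 0.05 (40%, where 16.3% of all genes did). Against sham all 5 were below 0 with rapamycin, with a median of -0.33, and 0 passed the edgeR test.

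Foxo1, a transcription factor that activates autophagy genes when insulin signalling is low, was at 4.28, 3.99 and 4.49 FPKM in sham, 4.35, 3.78 and 4.61 FPKM in I/R and 1.77, 2.75 and 3.07 FPKM with rapamycin. All 3 rapamycin values lay below the other 6. Its log2 fold change was -0.68 against I/R (SE 0.18, edgeR adjusted p = 0.141, DESeq2 adjusted p = 0.0261) and -0.71 against sham (SE 0.18, edgeR adjusted p = 0.154, DESeq2 adjusted p = 0.0214). Over the alternatives its adjusted p ranged from 0.0261 to 0.345 against I/R and from 0.0214 to 0.344 against sham. Prkaa2, the gene of the AMPK catalytic subunit alpha 2, which phosphorylates ULK1, was at 9.55, 6.26 and 8.69 FPKM in sham, 12.5, 9.46 and 10.6 FPKM in I/R and 4.36, 6.91 and 7.47 FPKM with rapamycin. Rapamycin values were below all I/R values and overlapped sham (log2 fold change -0.73 against I/R, SE 0.20, edgeR adjusted p = 0.149, DESeq2 adjusted p = 0.0202, alternatives 0.0202 to 0.388).

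Of the fusion and ER-phagy genes, Vps18, a subunit of the tethering complexes at the lysosome, was at 2.07, 2.47 and 2.38 FPKM in sham, 2.88, 2.70 and 2.88 FPKM in I/R and 3.12, 2.81 and 3.00 FPKM with rapamycin. Both injured groups lay above sham, with log2 fold changes of 0.26 (edgeR adjusted p = 0.507) and 0.41 (edgeR adjusted p = 0.178, DESeq2 adjusted p = 0.0487, alternatives 0.0487 to 0.471). Ccpg1, an ER-phagy receptor gene, was at 27.7, 28.5 and 29.3 FPKM in sham, 26.8, 23.5 and 24.0 FPKM in I/R and 21.8, 21.7 and 24.9 FPKM with rapamycin. All values of both injured groups were below sham, with log2 fold changes of -0.23 (edgeR adjusted p = 0.423) and -0.28 (edgeR adjusted p = 0.195, DESeq2 adjusted p = 0.0455, alternatives 0.0455 to 0.507).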

How the data were processed

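Poly(A) RNA of rat kidney was sequenced in 9 libraries, per the labels' protocols. Per the submitters' processing notes, reads were handled with HISAT2, cutadapt, DESeq2 and StringTie on Rnor_6.0. Their versions, the annotation, strand and counting settings were not given in the sources used here, so reads of overlapping or antisense genes are not separable. The authors deposited raw counts for 30454 gene IDs, and a second deposited table, with symbols, of FPKM per the file headers. It held 11235 genes, all reaching 1 FPKM in 8 or 9 libraries. A gene low in most libraries is therefore not among the 30. FPKM values were used for levels as deposited, without TMM scaling.

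Counts were tested in R 4.3.3 with edgeR 4.0.16 (TMM, default filter, robust quasi-likelihood test, all 9 libraries, no covariate). Standard errors are the log2 fold change over the square root of F, and 95% intervals use the fit's degrees of freedom. Implied length is counts over FPKM and library total, and its trend was fitted by loess (span 0.5). Alternatives were DESeq2 1.42.0, other size factors and filters, the 6 libraries compared, a replicate block, limma 3.58.1 on log2(FPKM + 1) and log2(FPKM + 0.1), and libraries left out. Removal of the length trend, which gives no p-value, was a further alternative. Genes and lists were chosen with earlier results of these data known, and some genes of the set are not reported here. Values per library are given for the 3 genes of smallest p per comparison, Sqstm1, Nbr1, Bnip3, Bnip3l, Ulk1, Rb1cc1 and Becn1, and for the 2 other pathway genes of smallest p per comparison. No library was a duplicate: within groups, pairs differed in their counts by a chi-square of 33.7 to 133 per degree of freedom.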

Additional observations from a re-analysis of the deposited data

How the results depend on the processing

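No alternative test but DESeq2, which called 1 autophagy gene (Atg4d) in the treatment comparison (I/R + rapamycin over I/R), called any of the 30 genes in any comparison. The median log2 fold change of the 30 stayed within -0.04 to 0.04 in the injury comparison, -0.11 to 0.02 in the treatment comparison and -0.08 to 0.02 in the treated-to-sham comparison, each less than the median standard error from its value in the report. The sign of single uncalled fold changes was less stable: 13, 15 and 12 of 30 genes changed sign under at least 1 of 20 alternatives. Among the 20 was the removal of the length trend, which gives no p-value and could call no gene. It changed the sign of 7, 9 and 3 genes. The number of all genes called, 10, 22 and 27 in these comparisons, moved widely. It was 240, 678 and 559 with DESeq2, 67, 128 and 104 without I/R 1 and sham 3 together, and 1, 1 and 7 with the replicate block. It was 2 and 6 for the first and second comparison in a fit of the 6 libraries compared, 22 and 12 with limma on log2(FPKM + 1), and 25 and 11 with limma on log2(FPKM + 0.1). Leaving out each library in turn gave 0 to 36, 0 to 47 and 3 to 47. Same-numbered libraries of different groups had correlations of their deviations from -0.38 to 0.20, so the numbers were not taken to pair the samples, and with the replicate block 0 of 30 genes were called. Every gene had at least 490 counts in each library, and the precision is limited by the 3 libraries a group.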
